A study of Mus musculus with 4 samples.

Results

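The genes described here are the 5 phosphatases Ptprr, Dusp1, Dusp3, Dusp5 and Dusp6, taken by symbol from the 55487 genes of the files, and all 5 were found. The set was chosen by the UMI counts of Ptprr, which were lower in both libraries labelled EC-K4KO, so Ptprr values between genotype labels are given as a description, with no test. The Dusp genes below are these 4 unless another is named. Single-cell RNA sequencing had been run on mouse brain cells enriched for endothelial cells (ECs), with 4 libraries in all, 1 for each age (young, old) of each genotype (WT Cre, EC-K4KO). Both genotypes were given tamoxifen as adults and carry the inducible Cdh5-CreERT2 driver, which acts in ECs of every organ, and EC-K4KO mice also carry floxed Klf4. The labels give age as young or old, without months, and the number of mice behind a library is not given in the sources used here.

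MAP kinases (ERK, JNK and p38) carry signals from growth factors and stress to the nucleus, and they are active only while a threonine and a tyrosine of their activation loop are phosphorylated. Phosphatases that remove these phosphates end the signal, and several are made in response to the signal itself, which closes a feedback loop. In ECs the ERK branch lies downstream of VEGF and FGF receptors.

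Ptprr encodes a receptor-type tyrosine phosphatase that docks on ERK and p38 through a kinase interaction motif. Dusp1 is a nuclear dual-specificity phosphatase and an early response gene, best known for acting on p38 and JNK. Dusp3 is a small dual-specificity phosphatase without a kinase-docking domain. Dusp5 is nuclear and acts on ERK, and Dusp6 is the cytoplasmic ERK phosphatase. Ptprr (ENSMUSG00000020151.16) lies at chr10:116018213-116274932 and Dusp6 (ENSMUSG00000019960.8) at chr10:99263231-99267489, both on the plus strand of GRCm38. Dusp1 (ENSMUSG00000024190.7) lies at chr17:26505590-26562128 and Dusp3 (ENSMUSG00000003518.13) at chr11:101971143-101987013, both on the minus strand, and Dusp5 (ENSMUSG00000034765.6) at chr19:53529109-53542431 on the plus strand. Genes annotated over Dusp1, Dusp3 or Dusp5 were each below 1 CPM (UMIs per 1000000 UMIs of the class, where a UMI is 1 tagged RNA molecule) in ECs, except Ergic1, which overlaps Dusp1 on the opposite strand and was at 15.8 to 16.2 CPM. The annotation also places 4933416C03Rik inside Ptprr on the opposite strand, and its level was not analysed here.

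Promoter windows (RefSeq, GRCm38.p6, 250 bases before to 50 after a start site) are shown because several of these genes respond to signals and because the targeted gene encodes a KLF factor. Ptprr has 4 listed start sites and each Dusp gene has 1. Capitals mark matches to TGACGTCA (the cyclic AMP response element, CRE), to the CArG box (the site of serum response factor) or to CACCC (the core of many KLF sites) on either strand. The windows of Ptprr start sites 1 and 3, of Dusp1 and of Dusp5 are given, since they range from no match to several.
Ptprr, chr10:116018113-116018412, plus strand: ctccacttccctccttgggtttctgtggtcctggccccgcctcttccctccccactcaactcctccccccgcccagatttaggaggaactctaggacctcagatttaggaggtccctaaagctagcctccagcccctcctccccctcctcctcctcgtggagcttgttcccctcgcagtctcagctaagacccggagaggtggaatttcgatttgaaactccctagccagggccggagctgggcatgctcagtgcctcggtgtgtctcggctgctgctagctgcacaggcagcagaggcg
Ptprr, chr10:116177008-116177307, plus strand: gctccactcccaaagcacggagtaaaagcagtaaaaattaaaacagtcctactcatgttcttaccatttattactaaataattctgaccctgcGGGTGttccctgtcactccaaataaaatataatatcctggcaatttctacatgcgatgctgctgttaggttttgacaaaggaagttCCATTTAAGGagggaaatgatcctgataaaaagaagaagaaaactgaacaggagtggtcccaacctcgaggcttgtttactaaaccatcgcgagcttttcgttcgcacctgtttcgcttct
Dusp1, chr17:26508423-26508722, minus strand: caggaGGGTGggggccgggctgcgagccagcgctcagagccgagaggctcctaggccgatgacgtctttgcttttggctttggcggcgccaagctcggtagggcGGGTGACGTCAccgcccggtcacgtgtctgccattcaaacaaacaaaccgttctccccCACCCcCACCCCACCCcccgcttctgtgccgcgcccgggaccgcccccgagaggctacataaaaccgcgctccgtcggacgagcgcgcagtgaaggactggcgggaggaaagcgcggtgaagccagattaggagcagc
Dusp5, chr19:53528895-53529194, plus strand: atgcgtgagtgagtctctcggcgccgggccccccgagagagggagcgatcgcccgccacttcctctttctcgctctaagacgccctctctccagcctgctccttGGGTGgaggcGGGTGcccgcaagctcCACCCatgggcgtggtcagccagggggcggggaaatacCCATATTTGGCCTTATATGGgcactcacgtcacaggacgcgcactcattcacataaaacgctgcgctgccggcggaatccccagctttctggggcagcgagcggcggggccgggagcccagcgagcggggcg
Among the members the CRE was found in Dusp1 alone, where it overlaps a CACCC match of the other strand, and 1.79% of the 32851 promoter windows of the table hold it. The CArG box was found 2 times in Dusp5, in adjoining matches, and 1 time in the overlapping windows of Ptprr start sites 3 and 4, against 1.63% of all windows. CACCC was found in all 4 Dusp genes and at the same Ptprr sites, but 57.5% of all windows hold it. A match is a run of letters, and no binding was measured.

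The files held 26422 barcodes, 21714 passed the filters and 10602 were endothelial-like. ECs had 11283214 to 48824061 UMIs per library, with median depths of 3856 to 10417 UMIs per cell, and 7 to 42 barcodes recurred between any pair of libraries. Klf4, the targeted gene, went against the labels: its EC level was 1696 CPM for young WT Cre, 3292 CPM for the young library labelled EC-K4KO, 2088 CPM for old WT Cre and 3292 CPM for the old library labelled EC-K4KO. The study measured Klf4 RNA and protein in isolated brain ECs by separate assays, which were not analysed here. Which part of Klf4 was deleted relative to the counted transcript ends is not given in the sources used here. Genotype names are therefore those of the labels.

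Ptprr was an endothelial gene in these libraries. ECs held 98.4% of the Ptprr UMIs found in named classes. Its EC level was 208 CPM (203 to 214) for young WT Cre, 70.3 CPM (68 to 72.7) for the young library labelled EC-K4KO, 149 CPM (144 to 156) for old WT Cre and 78.2 CPM (73.1 to 83.5) for the old library labelled EC-K4KO. The values in parentheses are exact 95% Poisson intervals, and all intervals here cover counting error only, since each group is 1 library. Both libraries labelled EC-K4KO lay below both WT Cre libraries.

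Outside the endothelium Ptprr was close to absent in the other 4 classes with at least 50 cells in every library. Smooth muscle cells were at 0.313 to 1.33 CPM and microglia at 0.253 to 3.46 CPM. Pericytes and astrocytes each had 4 UMIs over all libraries, all of them in young libraries. The 0 counts allow up to 6.04 and 11 CPM in pericytes of old WT Cre and the old library labelled EC-K4KO (3 UMIs). Among rarer classes, with libraries pooled, neurons (118 cells) were at 22 CPM (18 to 26.6) and oligodendrocyte precursors (106 cells) at 30.1 CPM (17.2 to 48.9). Erythroid barcodes (62 cells) were at 18.9 CPM (10.3 to 31.7), with 65.2 CPM in young WT Cre (9 UMIs) and 3.98 to 16.5 CPM in the other libraries. In the EC sums the 7 neuron markers came to 5.14 to 13.9 CPM together.

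**Figure D1:**
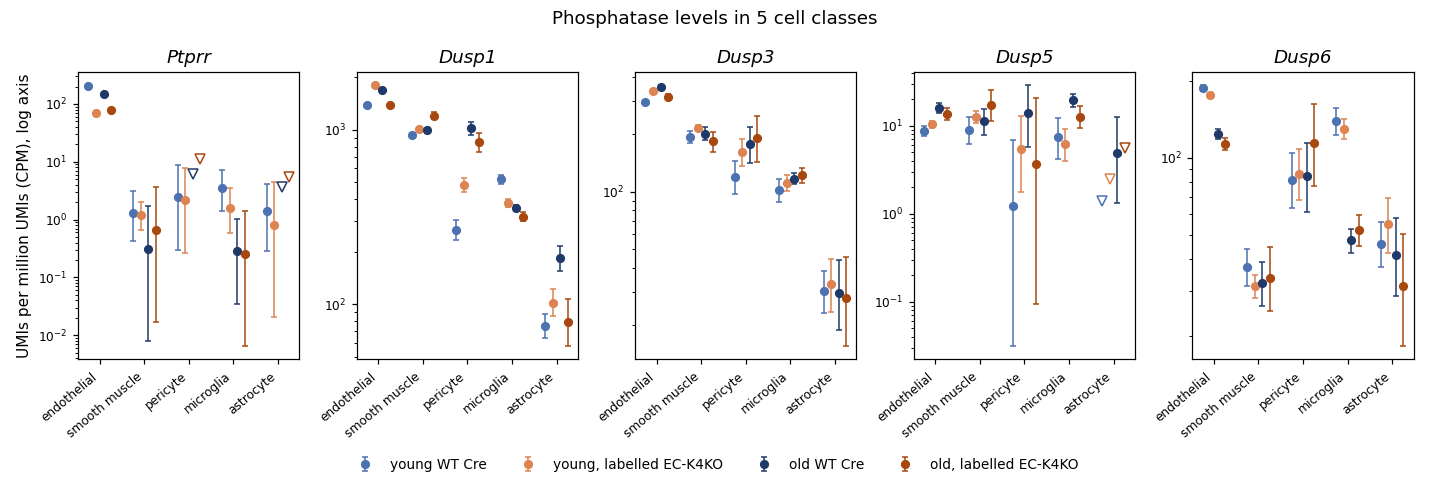
Level of each phosphatase (CPM, log axis) in 5 cell classes, 1 point per library with its exact 95% Poisson interval, and open triangles at the level of 3 UMIs for libraries with none. Ptprr stands at 70.3 to 208 CPM in ECs, and its points in the other classes lie below 4 CPM, with triangles up to 11 CPM. The Dusp genes spread over several classes.

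The Dusp genes were spread more widely. Dusp1 was highest in ependymal cells (190 cells), at 2732 CPM (2671 to 2793) pooled, and was at 1627 CPM (1619 to 1635) in ECs. Dusp3 was at 328 CPM (324 to 331) in ECs and 225 CPM (211 to 238) in neurons. Dusp6 was at 164 CPM (162 to 167) in ECs, 77.5 CPM (73.4 to 81.9) in microglia and 0.489 CPM (0.0593 to 1.77) in oligodendrocytes. Dusp5 was scarce in ECs, at 11.2 CPM (10.5 to 11.8), and stood at 384 CPM (334 to 438) in T and NK cells (109 cells) and 329 CPM (260.4 to 411) in dendritic cells (15 cells), whose intervals overlap. Of the UMIs in named classes, ECs held 76.3% for Dusp1, 78.1% for Dusp3, 47.8% for Dusp5 and 84% for Dusp6. These shares, like that of Ptprr, depend on cell yield as well as on level, since 10602 of the 21714 barcodes that passed were endothelial-like.

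The genes most like each member over the 20 sums of 5 classes in 4 libraries were taken from 9865 genes by Pearson's r of log2(CPM + 1). For Ptprr they were Sgpp2 (r = 0.990), Ly6c1 (0.984), a surface marker of brain ECs that helped to define the class here, and Robo4 (0.984), an endothelial receptor. For Dusp1 they were Dusp3 (0.957), Ptma (0.954) and the early response gene Ier2 (0.946). For Dusp3 they were Cast (0.967), Isyna1 (0.959) and Dusp1 (0.957). For Dusp6 they were Nras (0.922), a RAS protein, Mtus1 (0.914) and Manba (0.902). The 20 points share libraries and classes and are not independent. Dusp5 did not reach the minimum of 20 CPM in any of the 5 classes and was not ranked.

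In ECs the log2 ratio of Ptprr between labelled EC-K4KO and WT Cre was -1.57 (-1.63 to -1.5) for young libraries and -0.93 (-1.05 to -0.82) for old ones (exact conditional binomial intervals). Of the 8445 genes that averaged 10 CPM or more, 0.639% were lower by 0.5 or more in both pairs. This background stands beside a gene chosen for the contrast, and nothing is read from it.

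The share of ECs with a Ptprr UMI moved with the level. With each cell thinned to 1000 UMIs it was 16.9% (15.6 to 18.4) for young WT Cre and 5.05% (4.36 to 5.82) for the young library labelled EC-K4KO (exact Clopper-Pearson intervals). It was 12.9% (11.5 to 14.4) for old WT Cre and 5.32% (4.36 to 6.41) for the old library labelled EC-K4KO. The unthinned shares were 59.5%, 38%, 43.3% and 21.5% in the same order. In microglia, a class not known to express it, the thinned shares were 0.304%, 0.341%, 0.0798% and 0% of 723 cells, which allows up to 0.415%, at median depths of 4869 to 5616 UMIs. Each EC share lay above them. Fewer ECs expressing the gene and less RNA per EC cannot be told apart in the sums.

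Ptprr differed along the vessel, with its highest level in arterial-like ECs in all 4 libraries. Arterial-like ECs held 444 CPM (415 to 476) for young WT Cre, 271 CPM (249 to 295) for the young library labelled EC-K4KO, 254 CPM (232 to 278) for old WT Cre and 227 CPM (205 to 250.04) for the old library labelled EC-K4KO. Capillary-like ECs held 184 CPM (178 to 189) for young WT Cre, 58.5 CPM (56.2 to 60.9) for the young library labelled EC-K4KO, 124 CPM (117 to 131) for old WT Cre and 39.5 CPM (34.7 to 44.8) for the old library labelled EC-K4KO. The arterial-like level was 2.42-fold and 2.05-fold the capillary-like one in young and old WT Cre, and 4.64-fold and 5.73-fold in the libraries labelled young and old EC-K4KO. Venous-like ECs held 153 CPM (133 to 175) for young WT Cre, 35.6 CPM (29.3 to 42.7) for the young library labelled EC-K4KO, 161 CPM (143 to 181) for old WT Cre and 70 CPM (59 to 82.4) for the old library labelled EC-K4KO. They lay below capillary-like ECs in both young libraries and above them in both old ones. With venous markers that leave out Vwf, Ackr1 and Lcn2, young WT Cre had 95 venous-like cells instead of 48, and its venous-like level was 194 CPM against 176 CPM in capillary-like ECs, so that this order turned there and in no other library. The exact sign-flip permutation test over 4 libraries (two-sided) gave p = 0.125 for arterial-like against capillary-like ECs, the smallest p that 4 libraries allow.

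The genotype-label ratio of Ptprr was not of 1 size along the vessel. In capillary-like ECs the log2 ratio was -1.65 (-1.72 to -1.58) for young libraries and -1.65 (-1.85 to -1.45) for old ones. In arterial-like ECs it was -0.71 (-0.87 to -0.56) for young libraries and -0.17 (-0.36 to 0.03) for old ones, where the interval includes 0. In venous-like ECs it was -2.10 (-2.45 to -1.76) and -1.20 (-1.5 to -0.91). The segments took different shares of the ECs in each library. Capillary-like cells made up 88.6% in young WT Cre, 87.5% for the young library labelled EC-K4KO, 75.9% for old WT Cre and 69.2% for the old library labelled EC-K4KO, and arterial-like cells 4.05%, 3.55%, 7.91% and 10.2%. The 48 venous-like cells of young WT Cre were the fewest of any segment.

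**Figure D2:**
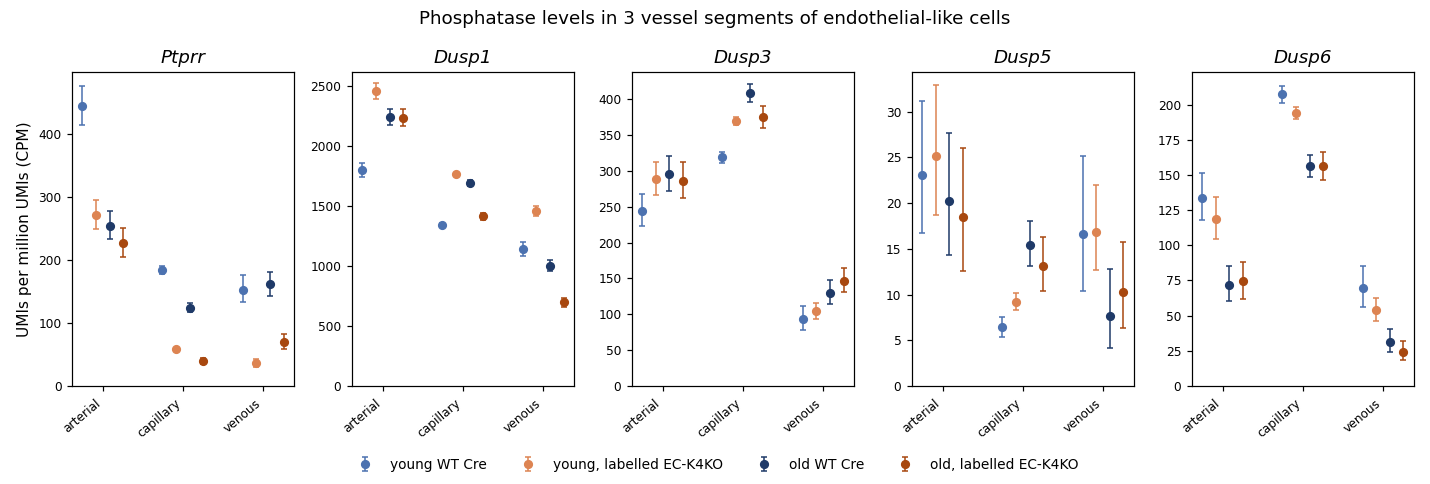
Level of each phosphatase (CPM, axis from 0) in arterial-like, capillary-like and venous-like ECs, 1 point per library with its exact 95% Poisson interval. Ptprr is highest in arterial-like cells in every library, and Dusp3 and Dusp6 are highest in capillary-like cells.

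The Dusp genes followed other orders along the vessel. Dusp6 was highest in capillary-like ECs (156 to 207 CPM), intermediate in arterial-like ECs (72 to 134 CPM) and lowest in venous-like ECs (24.5 to 69.6 CPM) within each of the 4 libraries. Dusp3 had the same order in all 4 libraries, at 319 to 409 CPM in capillary-like, 245 to 296 CPM in arterial-like and 93.8 to 147 CPM in venous-like ECs. Dusp1 was highest in arterial-like ECs (1801 to 2458 CPM), followed by capillary-like (1345 to 1764 CPM) and venous-like ECs (697 to 1457 CPM) within each library. Dusp5 was at 23.1 CPM in arterial-like against 6.42 CPM in capillary-like ECs of young WT Cre, and at 25.1 against 9.19 CPM for the young library labelled EC-K4KO. In both old libraries the counting interval of that Dusp5 ratio included no difference.

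With age, Ptprr had a log2 ratio of -0.48 (-0.55 to -0.41) in WT Cre ECs and 0.15 (0.04 to 0.26) in ECs labelled EC-K4KO. The median of all 8445 genes was itself -0.18 and -0.15, and relative to it Ptprr stood at -0.30 and 0.30. These ratios use the same 4 libraries as the genotype pairs. Within capillary-like ECs the age ratios were -0.57 and -0.56, in the same order. Arterial-like ECs were at -0.80 and -0.26, and venous-like ECs at 0.08 and 0.97. The shorter venous marker set gave -0.26 and 0.65 in venous-like ECs, so the sign in WT Cre depended on it.

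An additive model of age and genotype label was fitted to the 4 EC sums with edgeR's quasi-likelihood test (Benjamini-Hochberg over 15163 genes, 1 residual degree of freedom). Ptprr was at -0.03 ± 0.13 for age (log2, SE) and was not called (edgeR adjusted p = 0.896). The model assumes 1 age effect for both labels, while the separate ratios had opposite signs. The positive ratio in ECs labelled EC-K4KO turned to -0.06 with cells weighted equally and -0.12 with the 3 segments weighted equally. The same model was fitted to the segments, which was added after the segment levels were seen. In capillary-like sums Ptprr fell by 0.41 ± 0.08 on the log2 scale with age (edgeR adjusted p = 0.00300). In venous-like sums it rose by 0.52 ± 0.13 (edgeR adjusted p = 0.00256), and in arterial-like sums it was at -0.43 ± 0.14 (edgeR adjusted p = 0.164). Of all genes tested, 17% were called with age in capillary-like, 8.77% in venous-like and 2.77% in arterial-like ECs. With the shorter venous marker set, a fit added after the segment fits were seen, the venous-like estimate of Ptprr was 0.23 ± 0.18 and was not called (edgeR adjusted p = 0.488), while the capillary-like call stood (edgeR adjusted p = 0.00257).

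Dusp6 was lower in both old libraries than in both young ones. ECs held 187 CPM (182 to 192) for young WT Cre, 176 CPM (172 to 179.6) for the young library labelled EC-K4KO, 124 CPM (118 to 129.5) for old WT Cre and 113 CPM (107 to 119.6) for the old library labelled EC-K4KO. In the additive model Dusp6 fell by 0.47 ± 0.07 on the log2 scale with age (edgeR adjusted p = 0.00472). The separate log2 ratios were -0.60 in WT Cre and -0.64 in ECs labelled EC-K4KO, and -0.31 and -0.26 with each cell thinned to 1000 UMIs. Of all genes tested, 17.6% were called with age, 6.83% as lower and 10.7% as higher. By segment Dusp6 fell in arterial-like ECs, by 0.67 ± 0.14 (edgeR adjusted p = 0.0192), and in venous-like ECs, by 1.07 ± 0.19 (edgeR adjusted p = 6e-07). The venous-like call was lost with the shorter venous marker set, at -0.55 ± 0.17 (edgeR adjusted p = 0.106), where the ratio in WT Cre moved from -1.14 to -0.32. In capillary-like ECs, where Dusp6 was most abundant, it was at -0.21 ± 0.08 and was not called (edgeR adjusted p = 0.0966).

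As summed over all ECs, Dusp5 was higher in both old libraries than in both young ones. Its EC level was 8.71 CPM (7.63 to 9.89) for young WT Cre, 10.4 CPM (9.52 to 11.4) for the young library labelled EC-K4KO, 16 CPM (14.1 to 18.1) for old WT Cre and 13.6 CPM (11.5 to 15.9) for the old library labelled EC-K4KO. In the additive model Dusp5 rose by 0.78 ± 0.15 with age (edgeR adjusted p = 0.0136), and DESeq2 did not call it (adjusted p = 0.0548). Its separate age ratios, 0.87 in WT Cre and 0.39 in ECs labelled EC-K4KO, were 1.94 and -0.06 with thinned cells and -0.09 and -0.29 with the 3 segments weighted equally. It rose in capillary-like ECs by 1.05 ± 0.20 (edgeR adjusted p = 0.00152). In arterial-like ECs it was at -0.21 ± 0.25 (edgeR adjusted p = 0.763) and in venous-like ECs at -0.81 ± 0.32 (edgeR adjusted p = 0.102). Over all ECs edgeR called 2 of the 5 members with age, where it called 17.6% of all genes, and DESeq2 called 1 (Dusp6), where it called 7.06%.

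Dusp1 and Dusp3 had opposite orders of the genotype labels in young and old ECs. Dusp1 was at 1393 CPM (1379 to 1407) for young WT Cre, 1793 CPM (1781 to 1805) for the young library labelled EC-K4KO, 1686 CPM (1666 to 1707) for old WT Cre and 1391 CPM (1369 to 1413) for the old library labelled EC-K4KO. Its log2 ratio of labelled EC-K4KO to WT Cre was 0.36 (0.35 to 0.38) for young libraries and -0.28 (-0.31 to -0.25) for old ones. Dusp3 was at 295 CPM (289 to 302) for young WT Cre, 339.9 CPM (335 to 345) for the young library labelled EC-K4KO, 354 CPM (345 to 364) for old WT Cre and 315 CPM (304 to 325) for the old library labelled EC-K4KO, with ratios of 0.20 (0.16 to 0.24) and -0.17 (-0.23 to -0.11). The ratios of Dusp5 were 0.26 (0.03 to 0.49) and -0.23 (-0.54 to 0.06), and those of Dusp6 were -0.09 (-0.14 to -0.04) and -0.13 (-0.23 to -0.03). As summed over all ECs, none of the 4 Dusp members had a ratio between labels of 0.5 or more in size, a limit passed by 3.61% of genes in the young and 3.77% in the old pair. Dusp5 passed it in the young pair with cells weighted equally (0.65), thinned (0.79) or without the 5% deepest barcodes (0.65), and in the old pair with thinned cells (-1.20). By segment, Dusp5 was at 0.52 in capillary-like ECs of the young pair and Dusp1 at -0.53 in venous-like ECs of the old pair. With the shorter venous marker set the old venous-like ratios were -0.73 for Dusp1 and -0.85 for Dusp6, and the young capillary-like ratio of Dusp5 was 0.53. With age over all ECs, Dusp1 was at 0.10 ± 0.15 (edgeR adjusted p = 0.679) and Dusp3 at 0.22 ± 0.10 (edgeR adjusted p = 0.179). The separate age ratios of Dusp1 were 0.28 in WT Cre and -0.37 in labelled EC-K4KO. The fit takes 1 age effect for both labels, so opposite ratios cancel in it. In venous-like ECs Dusp1 fell by 0.56 ± 0.13 (edgeR adjusted p = 0.000329) and Dusp3 rose by 0.55 ± 0.13 (edgeR adjusted p = 0.000567), and in capillary-like ECs Dusp3 was called at 0.35 ± 0.09 (edgeR adjusted p = 0.0187). The separate capillary-like age ratios of Dusp3 were 0.36 (0.30 to 0.41) in WT Cre and 0.02 (-0.04 to 0.08) in labelled EC-K4KO, where the interval includes 0. The separate venous-like age ratios of Dusp1 were -0.19 (-0.29 to -0.09) in WT Cre and -1.06 (-1.15 to -0.98) in labelled EC-K4KO, so that the counting intervals did not overlap and the fall was larger in the latter. With the shorter venous marker set the Dusp1 ratio in WT Cre was -0.04 and the venous-like call of Dusp1 was lost, at -0.39 ± 0.19 (edgeR adjusted p = 0.273), and that of Dusp3 stood (edgeR adjusted p = 0.0241).

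**Figure D3:**
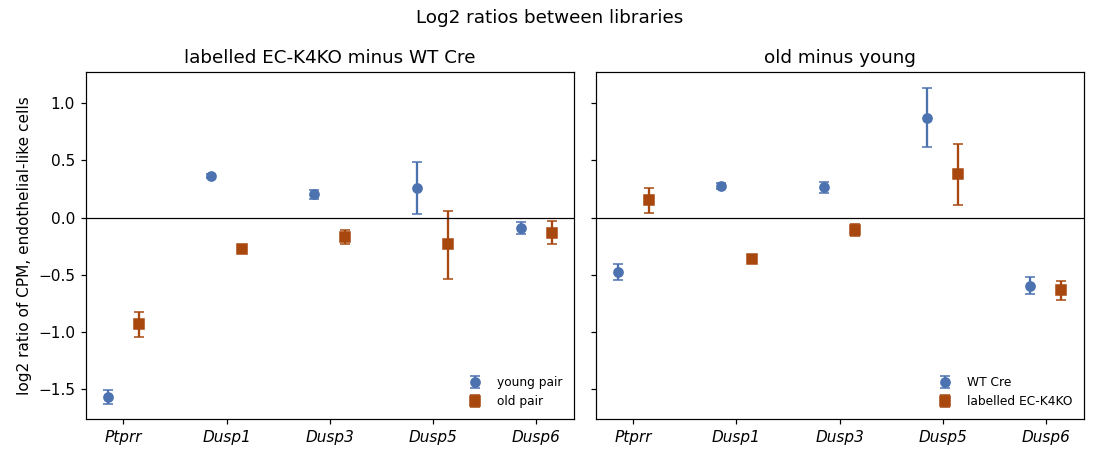
Log2 ratios of CPM between libraries in ECs with their exact 95% conditional binomial intervals (counting error only), between genotype labels and between ages. Ptprr is below 0 in both genotype pairs, Dusp1 and Dusp3 lie on opposite sides of 0, and Dusp6 is below 0 with age under both labels.

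None of the 4 Dusp members was called with the genotype label in ECs. The lowest of the 4 edgeR adjusted p-values was 0.752, 0 of 4 had an unadjusted p under 0.05, and DESeq2 called 0 of 4, where edgeR called 1.25% and DESeq2 0.85% of all genes. The estimates were 0.07 ± 0.15 for Dusp1, 0.05 ± 0.10 for Dusp3, 0.06 ± 0.15 for Dusp5 and -0.08 ± 0.07 for Dusp6 (log2, SE). The fit takes 1 label effect for both ages, so the opposite young and old ratios of Dusp1, Dusp3 and Dusp5 cancel in it. A missing call, here and in the classes and segments below, therefore does not show that the labels were alike. In smooth muscle cells, pericytes, microglia and astrocytes 0 of 14 edgeR tests of the Dusp members were called, and 3 had an unadjusted p under 0.05 (Dusp1 and Dusp5 in microglia, Dusp5 in smooth muscle cells). The shares of all genes called there were 0.1%, 0.139%, 1.24% and 0.0314%, in the order given. In the vessel segments edgeR called 0 of 12, and 0 had an unadjusted p under 0.05, where 0.676% of genes were called in arterial-like, 2.46% in capillary-like and 2.05% in venous-like ECs. DESeq2 was not run on these classes and segments.

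Microglia differed with age in Dusp6 and Dusp5. Dusp6 was at 139 CPM (123 to 156) for young WT Cre, 129 CPM (118 to 141) for the young library labelled EC-K4KO, 47.4 CPM (42.5 to 52.8) for old WT Cre and 52 CPM (45.1 to 59.6) for the old library labelled EC-K4KO, so the ages did not overlap. It fell by 1.12 ± 0.12 on the log2 scale (edgeR adjusted p = 2.32e-12), with separate age ratios of -1.55 in WT Cre and -1.31 in labelled EC-K4KO. Dusp5 rose by 1.52 ± 0.27 (edgeR adjusted p = 4.29e-06), with 7.42 and 6.19 CPM in the young and 19.4 and 12.7 CPM in the old libraries. Dusp3 was at 102 CPM (88.5 to 117) for young WT Cre, 112 CPM (101 to 123) for the young library labelled EC-K4KO, 117 CPM (109 to 125) for old WT Cre and 122 CPM (112 to 134) for the old library labelled EC-K4KO. Its age ratios of 0.20 (-0.02 to 0.43) and 0.13 (-0.07 to 0.32) both had intervals that included 0, whereas the fit, which scales libraries by trimmed means instead of total UMIs, estimated 0.48 ± 0.11 and called it (edgeR adjusted p = 0.000633). In microglia 28.1% of all genes were called with age.

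In pericytes Dusp1 rose with age by 1.48 ± 0.28 (edgeR adjusted p = 1.92e-05), where 2.03% of genes were called. It was at 268 CPM (233 to 306) for young WT Cre, 483 CPM (439 to 530.3) for the young library labelled EC-K4KO, 1018 CPM (931 to 1110.3) for old WT Cre and 847 CPM (741 to 963) for the old library labelled EC-K4KO. The separate age ratios were 1.92 (1.69 to 2.16) in WT Cre and 0.81 (0.57 to 1.04) in labelled EC-K4KO. Their counting intervals did not overlap, so the rise was not of 1 size, as the fit assumes. In smooth muscle cells edgeR called 0 of 4 Dusp genes with age and in astrocytes 0 of 3, and none of these had an unadjusted p under 0.05, where 3.67% and 0.637% of genes were called. DESeq2 was not run there.

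A list of 19 immediate early and dissociation-induced genes, which respond to the handling of cells as well as to signals, stood beside the Dusp1 values. In pericytes its summed level was 5128, 12599, 33962 and 25432 CPM for young WT Cre, the young library labelled EC-K4KO, old WT Cre and the old library labelled EC-K4KO, the same order as Dusp1 there. In ECs it was 22124, 29769.5, 35740.4 and 34616 CPM, while Dusp1 was at 1393, 1793, 1686 and 1391 CPM, another order. The orders of the list and Dusp1 differed too in microglia, smooth muscle cells and astrocytes. In EC genotype pairs the median log2 ratio of the list was 0.37 in the young pair, with 7 genes higher by 0.5 or more and 0 lower, and -0.09 in the old pair, with 0 past 0.5. The medians of all genes were -0.04 and -0.02. With age 11 rose and 0 fell by edgeR, beside 17.6% of all EC genes called, among them Junb, an AP-1 subunit, by 0.96 (edgeR adjusted p = 0.00477). Klf2, a flow-responsive factor, was at 0.05 (edgeR adjusted p = 0.807). With the label only Klf6 was called, at 0.61 (edgeR adjusted p = 0.0446), and it is named because its value was seen. The part of this list in the Dusp1 values was not tested.

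Of the 9 other MAP kinase phosphatases, 7 could be tested in ECs, 4 rose and 0 fell with age, with a median of 0.56 beside -0.02 for all genes. This count and those of the next lists stand beside 17.6% of all EC genes called with age and 1.25% with the label. Dusp2, a nuclear inducible phosphatase, was at 9.55 CPM for young WT Cre, 15.8 CPM for the young library labelled EC-K4KO, 24.8 CPM for old WT Cre and 35.3 CPM for the old library labelled EC-K4KO. It rose by 1.40 with age (edgeR adjusted p = 0.000283) and by 0.65 with the label (edgeR adjusted p = 0.0396), the only call with the label in this list. Dusp8 and Dusp16, which act on JNK and p38, rose with age by 0.71 (edgeR adjusted p = 0.00199) and 0.56 (edgeR adjusted p = 0.00556). Dusp7, a cytoplasmic ERK phosphatase like Dusp6, was at -0.11 (edgeR adjusted p = 0.294). Dusp10 was the fourth that rose.

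More distant phosphatases gave few calls with the label. Of 13 tested genes of a list of atypical dual-specificity and slingshot phosphatases, 2 rose and 0 fell with age, and edgeR called 0 with the label. The most abundant were Dusp11, Ssh2 (a slingshot phosphatase, which acts on cofilin) and Dusp22, at 0.07, -0.11 and -0.18 for age, and none of them was called. Of 14 receptor-type tyrosine phosphatases, 1 rose and 4 fell with age. Ptprb, the endothelial phosphatase that opposes the receptor Tie2, was at 1659, 1713, 1369.6 and 1652 CPM in the library order above and was not called with the label (0.19, edgeR adjusted p = 0.530). Ptprg and Ptprm were at -0.05 and -0.03 for the label and were not called. Ptprd, named because its value was seen, was the 1 receptor-type gene that fell with the label, by 1.95 (edgeR adjusted p = 0.0103), at 16.2, 3.42, 4.86 and 1.95 CPM.

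In the kinase cascade itself, 6 of 34 tested genes rose and 1 fell with age, a share near the 17.6% of all EC genes. Sos1, which activates RAS, rose with age by 0.43 (edgeR adjusted p = 0.0338). Mapk3, which encodes an ERK kinase, was at -0.16 with age (edgeR adjusted p = 0.168).

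Among 19 tested ERK feedback and target genes, 8 rose and 0 fell with age, and 1 fell with the label. Ccnd1, the D-type cyclin induced through ERK, was at 124 and 129 CPM in young and old WT Cre and 59 and 69 CPM in the libraries labelled young and old EC-K4KO. It fell by 0.96 with the label (edgeR adjusted p = 0.00308). Ier3, an early response gene, rose by 2.06 with age (edgeR adjusted p = 0.000123). Spry1, a feedback inhibitor of receptor tyrosine kinases, was at 0.72 with the label (edgeR adjusted p = 0.0511), and Egr1, a transcription factor induced by ERK, at 0.43 (edgeR adjusted p = 0.133), neither past the threshold.

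Glucocorticoid-responsive genes were listed because Dusp1 is known as one. Of 14 tested, 9 rose and 1 fell with age, and 3 rose and 1 fell with the label. Tsc22d3 and Zbtb16, known glucocorticoid targets, rose with the label by 0.83 (edgeR adjusted p = 0.0103) and 0.80 (edgeR adjusted p = 0.0103), and Mt2, a metallothionein, fell by 0.70 (edgeR adjusted p = 0.0152). Fkbp5 was the third that rose. Cdkn1a, Nfkbia and Mt1, the most abundant of the list, rose with age by 0.91 (edgeR adjusted p = 0.00101), 1.05 (edgeR adjusted p = 0.000822) and 0.37 (edgeR adjusted p = 0.0421).

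**Figure D4:**
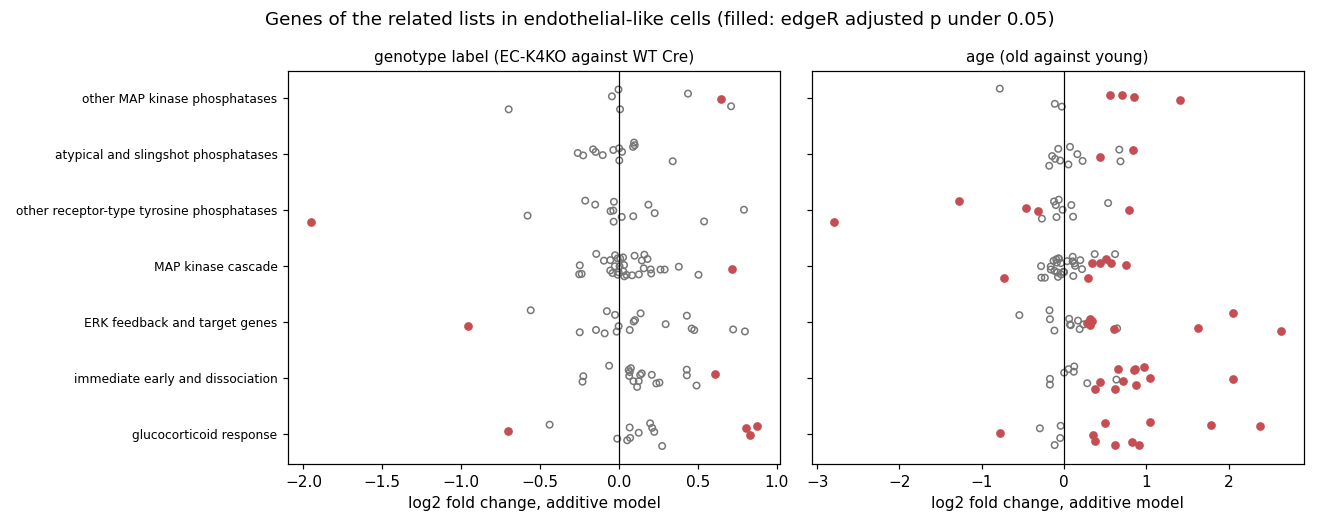
Log2 fold changes of the additive model in ECs for the tested genes of the related lists, 1 point per gene, for the genotype label (left) and age (right). Filled points have an edgeR adjusted p under 0.05. Calls with age lie mostly to the right of 0, as for the other MAP kinase phosphatases with 4 higher and 0 lower, and calls with the label are few.

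Markers of other classes were present in the EC sums. Erythroid markers summed to 1405, 3159.6, 1518 and 1601 CPM in the library order above, highest for the young library labelled EC-K4KO. Smooth muscle markers (6 of 6) summed to 116 to 229 CPM and oligodendrocyte markers (6 of 6) to 63.8 to 207 CPM. Neutrophil markers (6 of 7, with Mmp8 at 0) summed to 19.4, 42.8, 33.6 and 236 CPM, highest for the old library labelled EC-K4KO. Choroid plexus markers (4 of 4) summed to 65.2, 15.5, 360.1 and 136 CPM, higher in the old library of each label. Their part in the EC values was not tested.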

How the data were processed

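The deposited values were raw counts of UMIs per gene and barcode that the authors made with Cell Ranger 6.0.2 (file headers), with mm10 (GRCm38) named in the submitters' processing notes. Gene positions came from GENCODE M21, and all 5 identifiers matched. The cell filter asked for 500 genes and 1000 UMIs or more, with mitochondrial UMIs not above 10%. Cells were put into classes, and ECs into segments, by the share of their UMIs in marker genes, a rule set after the cells had been seen. No doublet caller was run, 1616 barcodes with markers of 2 classes were left out and 669 stayed unnamed. Rebuilt classes can differ from those of the study. Results for some genes of the lists and markers are not reported here. UMIs were summed per library and class, and log2 ratios took 0.5 UMI added to each sum. Sums were tested with edgeR 4.0.16 (quasi-likelihood, trimmed-mean scaling, age plus genotype label, R 4.3.3). With 1 library per group, p-values measure only the spread left after this fit, which edgeR shares over genes. They do not measure spread between mice or replicate libraries. The fit was checked on simulated counts. Members, lists and rules were chosen with earlier results of these data known. Named genes were the members, Klf4, the 3 most abundant genes of each list, list genes past a log2 ratio of 0.5 in the same direction in both genotype pairs, and the 3 genes most like each member. Others are marked as chosen after their values were seen, or complete a count of 5 or fewer. Alternatives were DESeq2 1.42.0 and its size factors, no filter on low counts, stricter cell and class limits, thinning, equal weights of cells or segments, leaving out the deepest barcodes, and venous markers without Vwf, Ackr1 and Lcn2.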

Additional observations from a re-analysis of the deposited data

Results flagged for a closer look

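Each result here is a log2 ratio that lay above 0 in 1 comparison and below 0 in its counterpart, with neither counting interval including 0. With 1 library per group the differences were not tested. The genotype pairs and the age ratios use the same 4 libraries, so that both describe 1 difference.

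Dusp1 changed sign most often. Between genotype labels (labelled EC-K4KO over WT Cre, young pair first), its ratios were 0.36 and -0.28 in ECs, 0.39 and -0.26 in capillary-like ECs and 0.35 and -0.53 in venous-like ECs. They were 0.85 and -0.26 in pericytes and 0.45 and -1.20 in astrocytes. Between ages (WT Cre first), its ratios were 0.28 and -0.37 in ECs, 0.32 and -0.14 in arterial-like ECs and 0.33 and -0.32 in capillary-like ECs.

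Dusp3 followed, with label ratios of 0.20 and -0.17 in ECs and 0.21 and -0.12 in capillary-like ECs, and age ratios of 0.26 and -0.11 in ECs. Ptprr had age ratios of -0.48 and 0.15 in ECs, and its ratio in ECs labelled EC-K4KO was -0.063 with cells weighted equally, -0.12 with equal segment weights and 0.0080 without the 5% deepest barcodes. The Dusp3 age ratio in ECs labelled EC-K4KO was 0.019 under trimmed-mean and 0.0096 under DESeq2 scaling, 0.084 with equal segment weights and 0.04 relative to the median of all genes, so that for both genes the sign depended on these choices. In capillary-like ECs the Ptprr age ratios were both negative (-0.57 and -0.56).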

How the results depend on the processing

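No paired analysis was possible because each group has 1 library, numbered 1, and leaving out a library leaves no residual degree of freedom. The genotype-label ratio of Ptprr in ECs, which the choice of the gene used, is given as a description. With cells weighted equally it was -1.63 in the young and -1.18 in the old pair, with thinning -1.86 and -1.29, and with equal segment weights -1.10 and -0.68. Without the 5% deepest barcodes the old pair gave -1.08. With age in WT Cre, Ptprr was at -0.32 under trimmed-mean and -0.31 under DESeq2 scaling. With age in labelled EC-K4KO it was at 0.28 and 0.27, and at -0.063 with cells weighted equally, 0.0080 without the deepest barcodes and -0.12 with equal segment weights. Dusp5 turned to -0.094 with age in WT Cre under equal segment weights, and in labelled EC-K4KO to -0.29 there and -0.056 with thinning. The shorter venous marker set ended the venous-like age calls of Ptprr, Dusp1 and Dusp6. The age calls of the additive model, 2666 genes, became 4014 without the filter on low counts and 967 with DESeq2. The 189 label calls became 797 and 121 under these, 84 with the stricter cell filter, 474 with the stricter class limit and 79 with mixed barcodes kept. The age estimate of Ptprr was 0.028 and 0.0079 under the stricter cell filter and class limit, and not called. In venous-like sums the age estimates were 0.52 for Ptprr, -0.56 for Dusp1 and -0.81 for Dusp5, and the label estimate of Dusp1 was -0.067. In arterial-like sums Dusp5 was at -0.21. The cause of these moves was not tested. Over 8 fits the adjusted p of the age term ran from 9.23e-08 to 0.0122 for Dusp6 and from 1.29e-06 to 0.0548 for Dusp5, where edgeR passed and DESeq2 did not. Of 180 alternative EC ratios of the members, 105 stayed within their counting interval, 74 moved beyond it without a change of sign of a value past 0.5 and 1 reversed. Depth limits Dusp5 most, at 8.71 to 16 CPM in ECs.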

Other observations

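ECs in which Klf4 was or was not found differed in Dusp1 and not clearly in Ptprr. With each cell thinned to 1000 UMIs, Dusp1 was found in 45% of ECs without and 67% of ECs with a Klf4 UMI in young WT Cre, and in 47.8% and 70.9% for the young library labelled EC-K4KO. The shares were 54.8% and 70.3% in old WT Cre, and 43.8% and 64.7% for the old library labelled EC-K4KO. Ptprr was found in 16.4% and 17.3% in young WT Cre, 5.67% and 4.97% for the young library labelled EC-K4KO, 14.1% and 12.5% for old WT Cre and 5.80% and 5.25% for the old library labelled EC-K4KO. The Ptprr intervals overlapped within each library, as did those of Dusp3 and Dusp5. Those of Dusp6 did not overlap in young WT Cre, at 14.8% (12.7 to 17.1) without and 19.5% (17.6 to 21.4) with a Klf4 UMI. In the other libraries the Dusp6 intervals overlapped. These splits are descriptions of single cells, and no test was made of them.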
